A study of Drosophila melanogaster with 36 samples.

Results

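The mirtrons miR-1003 to miR-1017 are 24 mature miRNA arms from 15 hairpins, chosen by the number in their miRBase names. They are 24 of the 495 miRBase-named rows, and of the 673 rows in all, in tables of small RNA counts from Drosophila melanogaster heads. Old heads came from flies aged 55 days and young heads from flies aged 5 days, all female and of genotype w1118, a white-eyed laboratory stock. Each age was sampled at 6 zeitgeber times (ZT, hours on the daily light cycle) from ZT0 to ZT20, 4 h apart, with 3 replicate libraries at each time, which gives 18 libraries per age. Each library pooled 400 whole heads, so neurons, eye, fat body, muscle and other cells were measured together. The labels do not state if the replicates were grown as separate cohorts, and the p-values therefore measure the spread between these libraries, which may be technical.

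A mirtron is a short intron that folds into a microRNA precursor. Most microRNA precursors are cut out of a longer transcript by Drosha, whereas a mirtron is cut out by the spliceosome, its lariat is opened by the debranching enzyme, and the hairpin then goes on to Dicer and Argonaute as other precursors do. A tailed mirtron has only one end of its hairpin at a splice site, and the rest of the intron is trimmed away first. In flies the uridylyl transferase Tailor adds uridines to hairpins whose 3′ end is that of a spliced intron. Dicer releases a duplex with a 5p and a 3p arm, of which the more abundant is called the major arm here.

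The annotated positions on BDGP6 were those of mirtrons. All 15 hairpins began at the first base of an intron of a protein-coding gene on their own strand, and 14 of the 15 also ended at its last base. These 14 introns were 54 to 71 bases long. The hairpin of miR-1010, for example, is the whole intron of SKIP at chromosome 3R, bases 22292879 to 22292949 on the plus strand, a length of 71 bases. The hairpin of miR-1012 fills an intron of Lerp, a lysosomal enzyme receptor, at chromosome 3R, bases 26861349 to 26861407 on the minus strand, a length of 59 bases. That of miR-1004 fills an intron of CG43707 at chromosome 2L, bases 3767621 to 3767688 on the plus strand, a length of 68 bases. The exception was miR-1017, whose hairpin takes the first 71 bases of a 169-base intron of the nicotinic acetylcholine receptor subunit nAChRalpha2 (chromosome 3R, bases 24488612 to 24488682, plus strand) and leaves a tail of 98 bases on the 3′ side.

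The annotated arms met the exact splice site more often on the 3′ side. The 3p arm ended on the last base of the intron in 11 of 15 hairpins, and the 5p arm started on its first base in 3 of the 9 hairpins with an annotated 5p arm. The 5p arms of miR-1003, miR-1006, miR-1012, miR-1014 and miR-1016 started only 1 base further in. The 3p arms of miR-1007 and miR-1008 ended 1 base short of the intron end. The other host genes include VhaSFD, a subunit of the vacuolar proton pump (miR-1006), the Hippo pathway kinase gene wts (miR-1013), the mitochondrial fusion gene Opa1 (miR-1016), the ionotropic receptor gene Ir93a (miR-1011) and the transporter genes Atet and Abca3 (miR-1005 and miR-1007). The hairpin of miR-1009 also overlaps an exon of its host CG3860 in another transcript. Host transcript levels were not analysed here. Among the other hairpins, 98 lay in an intron or flush with one, and 19 of these filled it from end to end.

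**Figure D1:**
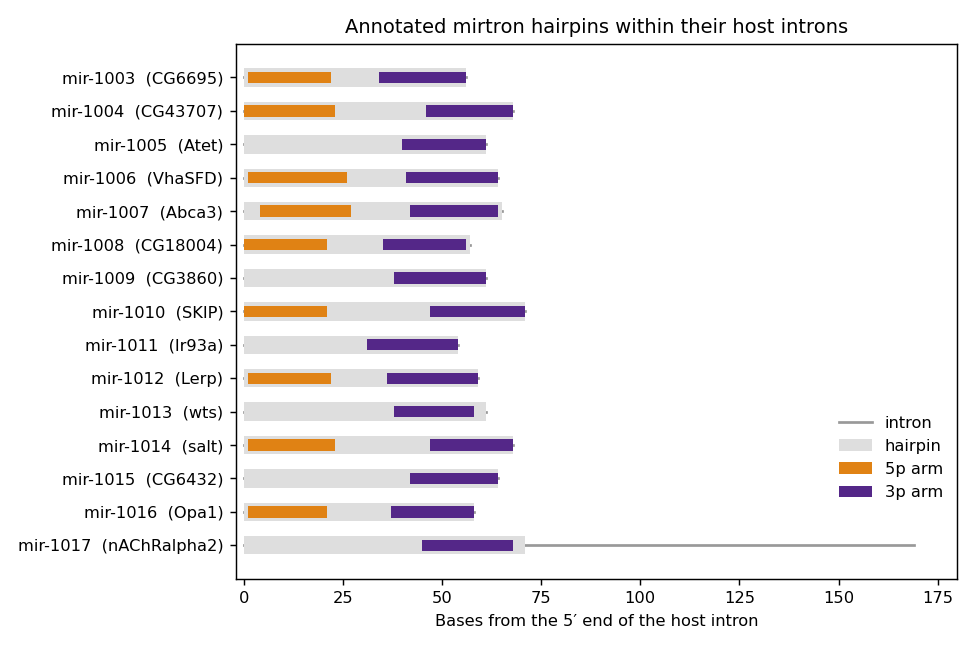
Position of each of the 15 hairpins (grey), with its annotated 5p arm (orange) and 3p arm (purple), in bases from the 5′ end of its host intron (line), with the host gene in brackets. In 14 rows the hairpin fills the intron, and in the mir-1017 row a tail of 98 bases follows it.

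The members ranged in level from 0.183 CPM (miR-1015-3p) to 705 CPM (miR-1010-3p) on average over all libraries. Levels are given as CPM, normalised counts relative to library size. Total miRNA counts per library were 16.2 to 23.6 M in old heads and 19.8 to 30.4 M in young heads. Of the 24 arms, 22 passed the filter on low counts, and each of these had counts in all 36 libraries. The arms of miR-1014 did not pass: miR-1014-3p had 1 count summed over the old and 6 over the young libraries, and miR-1014-5p had 5 in old and 16 in young. Of the 22 tested arms, 11 averaged at least 10 CPM, 8 were between 1 and 10 CPM and 3 were under 1 CPM. The median of their means was 10.3 CPM, against 14.3 CPM for the 274 other tested miRBase arms.

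The order of levels began alike at both ages. In old heads miR-1010-3p (697 ± 207 CPM, SD, n = 18) stood above miR-1012-5p (224 ± 26.2), and miR-1012-5p above all arms below it, without overlap of the library ranges. In young heads miR-1010-3p (713 ± 161 CPM) and miR-1012-5p (229 ± 30.7) led in the same way. Below these, the places differed between the ages. In old heads miR-1012-3p (72.1 CPM), miR-1013-3p (71.2) and miR-1004-5p (59.7) overlapped in turn, while in young heads miR-1012-3p (117) and miR-1004-5p (89.6) stood above miR-1013-3p (68.0), with an overlap between the first 2 and between the last 2. From miR-1006-3p downwards (39.1 CPM in old and 39.9 in young heads), every neighbouring pair overlapped in old heads, and every pair but that of miR-1011-3p and miR-1006-5p overlapped in young heads.

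**Figure D2:**
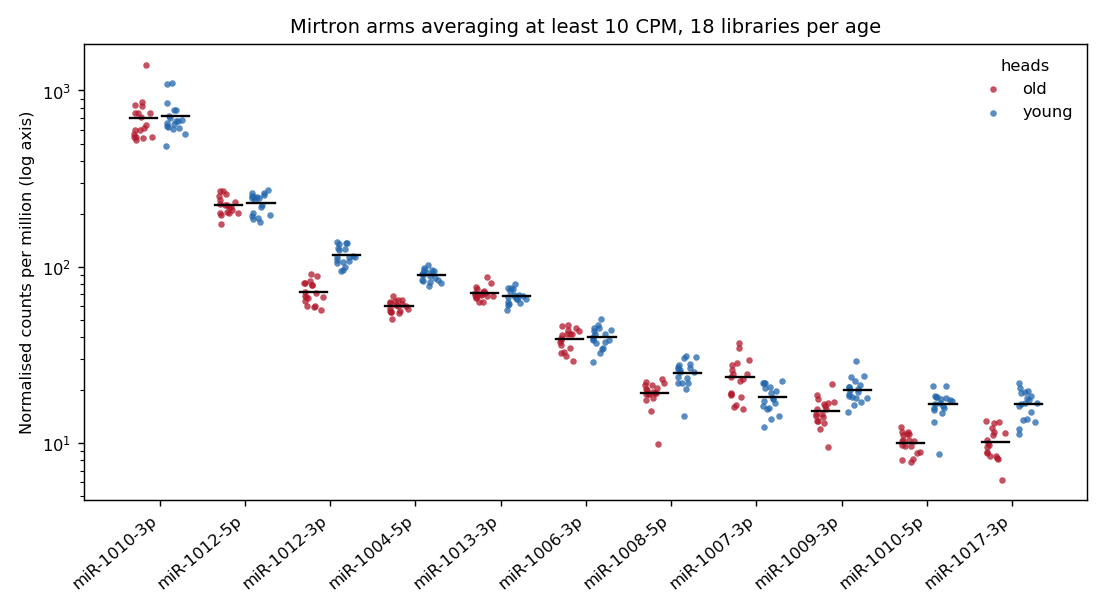
CPM (log axis) of the 11 mirtron arms that averaged at least 10 CPM, a point per library and a bar at the mean, with old heads (red) left of young heads (blue). The 2 ages separate for miR-1012-3p and miR-1004-5p and overlap for the other 9 arms.

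The first comparison asks which mirtron arms differ between old and young heads. Of the 22 tested arms, 10 were lower and 2 were higher in old heads, and 10 were not called (edgeR quasi-likelihood test, Benjamini-Hochberg adjusted p under 0.05). Over all 363 features tested, 29.2% were lower in old heads, 32.2% were higher and 61.4% were called in either direction. The members' share of lower calls was 45.5%, while their share of calls in either direction was close to that of all features. The median log2 difference, old minus young, was -0.21 over the 22 arms and 0.05 over all 363 features, and the members' median stayed below 0 under every other scaling run, from -0.88 to -0.05. With library totals alone as the scale, 8 arms were lower and 4 higher, and of all calls 66.8% were higher, against 52.5% with the main scaling. In heads, fewer cells of a type and less RNA per cell cannot be told apart.

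Of the members, 2 separated the ages completely, both lower in old heads, where 3.58% of all features separated in that direction and 5.23% in the other. The 5p arm of miR-1004 had 50.5, 59.7 and 68.0 CPM in its lowest, median and highest old library, against 78.0, 90.0 and 103 CPM in young heads. The log2 difference was -0.59 ± 0.043 (SE, adjusted p = 9.92e-14). The highest old library lay below the lowest young one, and the means were lower in old heads at all 6 time points. In miR-1012 the 3p arm had 57.0, 69.7 and 91.7 CPM in old heads, against 94.8, 114 and 139 CPM in young heads, with a log2 difference of -0.70 ± 0.068 (adjusted p = 1.32e-10). Here too the ranges did not meet and all 6 time points had the same direction. Its partner miR-1012-5p, the major arm, had 175, 221 and 270 CPM in old heads, against 179, 242 and 273 CPM in young heads, and was not called (log2 difference -0.03 ± 0.067, adjusted p = 0.678).

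The other 8 lower arms overlapped between the ages to different degrees. The largest difference among the members was that of miR-1004-3p, with 2.99, 3.98 and 10.1 CPM in old heads, against 7.04, 9.60 and 14.9 CPM in young heads (log2 difference -1.12 ± 0.12, adjusted p = 1.11e-09). The median old library lay below every young library, and the highest old library reached into the young range. In miR-1016, hosted by Opa1, the 3p arm had 0.314, 0.490 and 0.934 CPM in old heads, against 0.689, 0.883 and 1.55 CPM in young heads (-0.92 ± 0.14, adjusted p = 1.33e-06), from 7 to 23 counts per old library and 10 to 43 per young library. No other member called for age had so few counts. The 5p arm of miR-1016, at 0.747 to 1.34 CPM in old and 0.863 to 1.88 CPM in young heads, was not called (adjusted p = 0.0736).

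In miR-1003 the 3p arm, its major arm, had 2.74, 3.28 and 4.43 CPM in old heads, against 3.83, 6.09 and 7.84 CPM in young heads (-0.77 ± 0.079, adjusted p = 2.80e-10). Old libraries were at the low end with a small overlap. The 5p arm of miR-1010 had 7.85, 10.3 and 12.4 CPM in old heads, against 8.69, 17.2 and 21.2 CPM in young heads (-0.74 ± 0.080, adjusted p = 1.16e-09). Its major partner miR-1010-3p, the most abundant of the members, had 521, 627 and 1399 CPM in old heads, against 487, 670 and 1103 CPM in young heads, and was not called (-0.04 ± 0.11, adjusted p = 0.773). The tailed mirtron arm miR-1017-3p had 6.23, 9.90 and 13.4 CPM in old heads, against 11.3, 16.9 and 21.9 CPM in young heads (-0.72 ± 0.094, adjusted p = 5.40e-08), so it was lower as were 9 arms whose hairpins fill their introns.

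The remaining lower arms had smaller differences. Levels of miR-1009-3p were 9.59, 15.1 and 21.8 CPM in old heads, against 15.1, 19.8 and 29.1 CPM in young heads (-0.40 ± 0.079, adjusted p = 6.16e-05). The 5p arm of miR-1008 had 9.96, 19.4 and 23.3 CPM in old heads, against 14.3, 25.7 and 31.4 CPM in young heads (-0.38 ± 0.078, adjusted p = 7.04e-05). In miR-1011, hosted by Ir93a, the 3p arm had 2.80, 3.70 and 5.22 CPM in old heads, against 3.39, 4.60 and 5.83 CPM in young heads (-0.23 ± 0.070, adjusted p = 0.0045). In these 3 arms the ranges overlapped widely. The calls of miR-1008-5p and miR-1011-3p did not hold with library totals alone (edgeR adjusted p = 0.0529 and 0.392). With the main scaling, all 10 lower arms were below 0 at all 6 time points and in each of the 3 replicate numbers. These signs were not recomputed with library totals alone.

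The 2 higher arms turned negative on 1 scale, which shifted the median of all features by -0.67. The 3p arm of miR-1007, hosted by Abca3, had 15.6, 23.5 and 37.2 CPM in old heads, against 12.4, 18.0 and 22.7 CPM in young heads, a log2 difference of 0.36 ± 0.11 (adjusted p = 0.00355) that turned to -0.32 (adjusted p = 0.0145) when libraries were scaled to the larger total behind the deposited piRNA values. Its call was lost when counts were summed over the 6 libraries of each replicate number (0.30, adjusted p = 0.119). The old libraries reached further up, and the lower part of their range lay within the young one. The 5p arm of miR-1006, a minor arm, had 1.18, 2.17 and 3.11 CPM in old heads, against 0.790, 1.76 and 2.81 CPM in young heads (0.32 ± 0.14, adjusted p = 0.0451), and turned to -0.37 (adjusted p = 0.0277) on that scale. Its call was lost with counts summed in the same way (adjusted p = 0.351) and when any of 26 of the 36 libraries was left out, with log2 differences from 0.22 to 0.37.

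The direction of a difference thus depends on the total it is set against. The total behind the piRNA values was 66.8 to 91.6 M in old heads and 36.5 to 67.0 M in young heads, while the miRNA total averaged 20.6 M in old and 25.6 M in young heads. Relative to it the median of all 363 features shifted by -0.67 on the log2 scale and all 22 mirtron arms were called lower in old heads. Relative to the median of all features, the members' median was -0.26 with the main scaling and, since a common factor cancels, nearly the same by construction on any total. It was -0.16 with limma on log2(RPM + 1), -0.18 without the rr identifiers and -0.41 with a filter at 10 CPM.

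Besides miR-1010-3p and miR-1012-5p, a pair of arms above 10 CPM was not called. Levels of miR-1013-3p, from an intron of wts, were 62.9, 69.7 and 88.2 CPM in old heads, against 57.3, 67.6 and 79.8 CPM in young heads (0.06 ± 0.045, adjusted p = 0.213). Those of miR-1006-3p were 29.2, 40.3 and 46.9 CPM in old heads, against 28.9, 39.6 and 50.5 CPM in young heads (-0.03 ± 0.067, adjusted p = 0.704). These ranges almost coincided. The other uncalled arms, all under 2 CPM on average, were miR-1003-5p, miR-1005-3p, miR-1007-5p, miR-1008-3p, miR-1015-3p and miR-1016-5p, with log2 differences from -0.75 to 0.23. Counts had fractions in at least 1 library for 16 of the 22 arms and in none for the other 6. They were most frequent in miR-1006-3p (36 libraries), miR-1010-3p (30) and miR-1013-3p (27). Among the arms called for age they were most frequent in miR-1003-3p (22), miR-1007-3p (20), miR-1012-3p (15), miR-1008-5p and miR-1009-3p (13 each). The deposited files do not define the adjustment that gives fractions, and reads shared between entries would make these levels less certain. No other row nearly matched a member in both the profile of its counts and their total. Sequences were not compared, so the sharing of reads between entries was not tested.

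**Figure D3:**
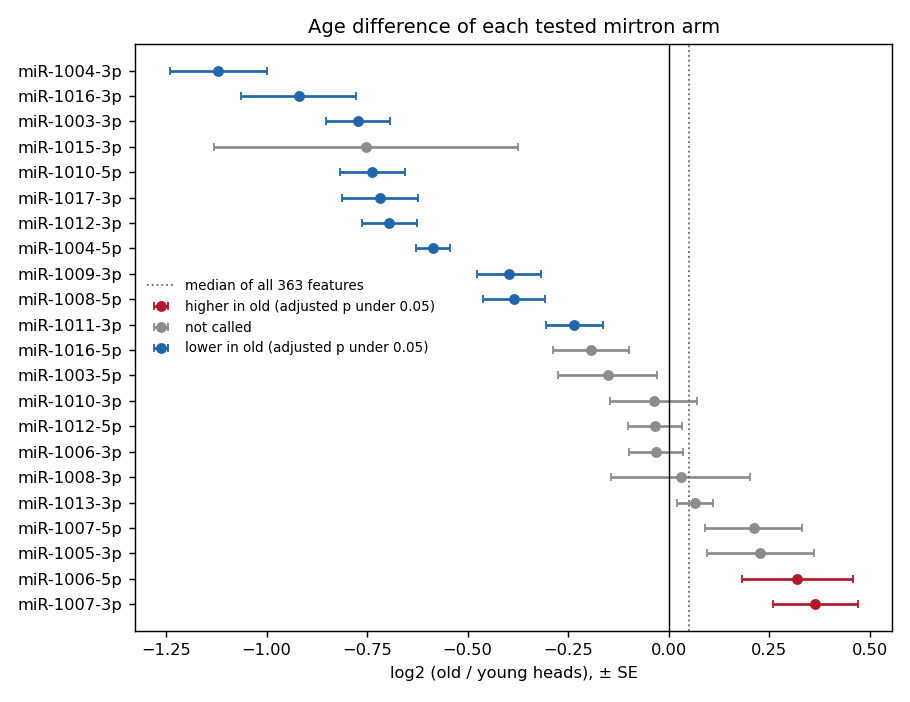
Log2 difference, old over young heads, of each of the 22 tested mirtron arms with its SE from the edgeR fit over 36 libraries. The 10 lower arms (blue) run from -1.12 to -0.23, the 2 higher arms (red), miR-1006-5p and miR-1007-3p, turned negative when scaled to the larger piRNA total, and the dotted line marks the median of all features at 0.05.

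The mirtrons were then set beside other hairpins grouped by position alone. Of the 10 tested arms of other hairpins that fill a short intron, 4 were lower and 2 higher in old heads, with a median log2 difference of -0.10. Of 78 arms from other intronic hairpins, 19 were lower and 28 higher, with a median of 0.10. Of 66 arms from hairpins outside genes, 21 were lower and 12 higher, with a median of -0.07. Of 91 arms from hairpins that overlap an exon, 30 were lower and 27 higher, with a median of 0.00. A further 29 arms had names that matched no hairpin name in the annotation and so were not grouped by position. Of these, 13 were lower and 10 higher, with a median of -0.12. Over all 274 other miRBase arms, 87 were lower and 79 higher, with a median of -0.01. The share of lower calls among the members (45.5%) was close to that of the arms with unmatched names (44.8%), which are not a group by position. The differences between groups were not tested and were not recomputed on other scales, and 15 hairpins are not independent samples of a pathway.

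**Figure D4:**
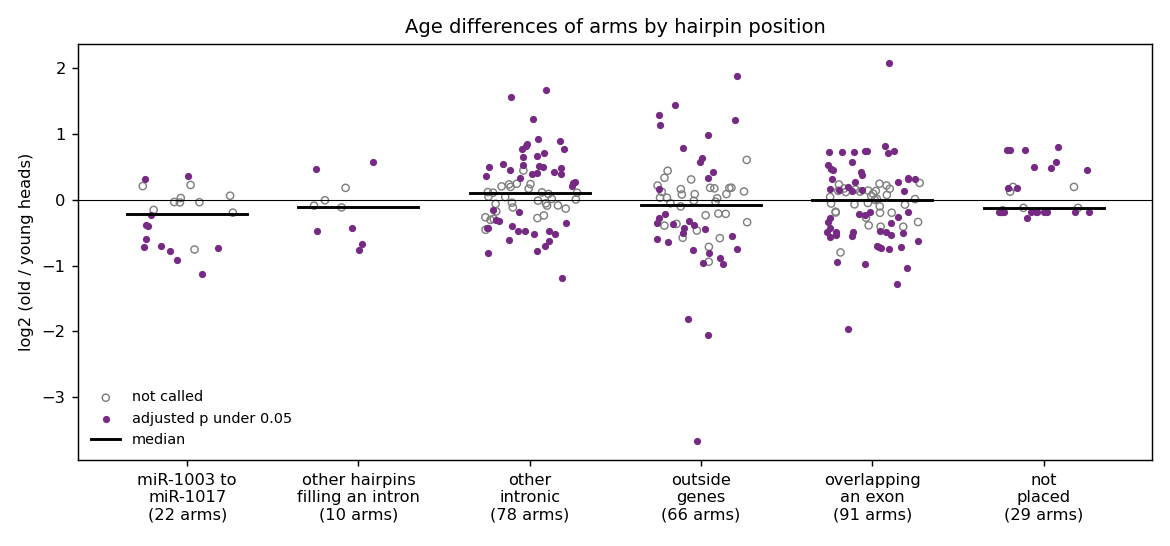
Log2 differences, old over young heads, of arms grouped by hairpin position, a point per arm (filled where the adjusted p is under 0.05) and a bar at the median. The medians are -0.21 for miR-1003 to miR-1017, -0.10 for other hairpins that fill an intron, 0.10 for other intronic hairpins, -0.07 for hairpins outside genes and 0.00 for hairpins that overlap an exon. The median is -0.12 for the arms marked not placed, whose names matched no hairpin name in the annotation.

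The balance of the 2 arms of a hairpin was compared within each library, where the scale cancels. It was taken as the log2 ratio of 3p to 5p counts and tested with limma for 93 hairpins, of which 8 were mirtrons. The 3p arm was the major arm of miR-1003, miR-1006, miR-1007 and miR-1010 in all 36 libraries, and the 5p arm was the major arm of miR-1004, miR-1008 and miR-1012 in all 36. In miR-1016 the 5p arm exceeded the 3p arm in 33 of 36 libraries. The major arm exceeded the minor arm by a mean ratio of 53.3 in miR-1010 and of 1.66 in miR-1016, with a median of 15.1 over the 8 mirtrons, against 18.1 over all 93 hairpins.

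The arm balance differed with age in 6 of the 8 mirtrons, 5 towards the 5p arm and 1 towards the 3p arm in old heads. Over all 93 hairpins 57% were called, 32.3% towards the 5p arm and 24.7% towards the 3p arm. In miR-1012 the 3p arm took 19.6%, 24.8% and 29.7% of the hairpin's counts in the lowest, median and highest old library, against 27.9%, 34.7% and 42.1% in young heads (log2 ratio difference -0.67 ± 0.092, limma adjusted p = 3.04e-07). Only the upper end of the old range met the lower end of the young one. In miR-1016 the shares were 18.9%, 31.8% and 45.5% in old heads, against 29.6%, 43.7% and 63.2% in young heads (-0.73 ± 0.17, adjusted p = 0.000591). In miR-1003 they were 65.0%, 77.1% and 86.4% in old heads, against 77.1%, 84.0% and 92.8% in young heads (-0.64 ± 0.13, adjusted p = 8.03e-05). The arm that took the smaller part in old heads was thus the minor arm of miR-1012 and miR-1016 and the major arm of miR-1003.

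In miR-1004 the 3p arm took 4.77%, 6.29% and 14.5% in old heads, against 6.78%, 9.67% and 15.3% in young heads (-0.55 ± 0.13, adjusted p = 0.0005). In miR-1006 it took 93.1%, 94.8% and 96.8% in old heads, against 93.8%, 95.8% and 98.3% in young heads (-0.38 ± 0.13, adjusted p = 0.0163). In miR-1010 the direction was the other, with 97.8%, 98.6% and 99.3% in old heads, against 95.8%, 97.4% and 99.2% in young heads (0.68 ± 0.16, adjusted p = 0.000647). The ranges of the log2 ratio overlapped in all 8 mirtrons, where 6.45% of the hairpins had no overlap. With counts summed over the 6 libraries of each replicate number, the calls of miR-1004 (-0.53, adjusted p = 0.0603) and miR-1006 (-0.36, adjusted p = 0.175) were lost and the other 4 were kept. The balance of miR-1007 (0.15 ± 0.14, adjusted p = 0.364) and miR-1008 (0.41 ± 0.18, adjusted p = 0.0597) was not called.

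Read by arm, the lower calls were spread over both kinds. Of the 8 major arms 3 were lower and 1 higher in old heads, of the 8 minor arms 4 were lower and 1 higher, and of the 6 arms without a tested partner 3 were lower. The median log2 difference was -0.12 for major and -0.42 for minor arms. In miR-1003 and miR-1008 the major arm was lower in old heads and the minor arm was not called. In miR-1004 both arms were lower, the minor arm by more (-1.12, against -0.59 for the major arm). In miR-1010, miR-1012 and miR-1016 the minor arm was lower and the major arm was not called.

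**Figure D5:**
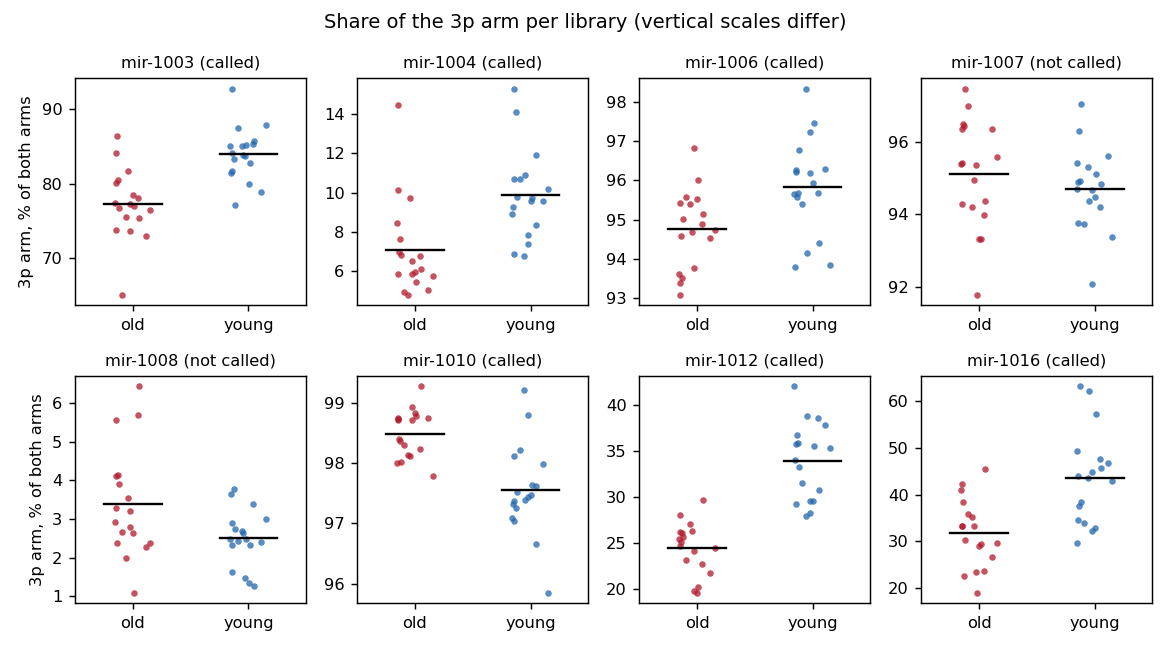
Share of the 3p arm in the counts of both arms (percent, vertical scales differ) for the 8 mirtrons with enough counts on both arms, a point per library and a bar at the mean, with old heads left of young heads. In 5 of the 6 called hairpins the 3p share is lower in old heads, and in mir-1010 it is higher.

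Time of day was tested by fitting a 24 h wave to each age. In old heads no member was called for a rhythm, nor was any of the 363 features (0%), with 3 members and 39 features at an unadjusted p under 0.05. In young heads 1 member was called, miR-1015-3p, where 4.96% of all features were. No member was called for a rhythm that differs between the ages (3 at an unadjusted p under 0.05), where 0.275% of all features were, and none for an age difference that depends on the time point, where 0% were (0 members at an unadjusted p under 0.05). Nor did the arm balance of any of the 93 hairpins pass any of these 4 tests with limma, which were added after the data were seen. Over the 11 arms of at least 10 CPM, the highest time-point mean exceeded the lowest by a median factor of 1.21 in old and 1.19 in young heads.

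The means of miR-1004-5p lay between 57.8 CPM at ZT4 and 63.4 CPM at ZT20 in old heads, against 84.8 CPM at ZT12 and 95.8 CPM at ZT0 in young heads. For miR-1012-3p they lay between 67.8 CPM at ZT16 and 77.4 CPM at ZT0 in old heads, against 105 CPM at ZT20 and 125 CPM at ZT16 in young heads. The distance between the ages exceeded the range over the day in both arms. The smallest p values in old heads were those of miR-1007-5p (peak-to-trough log2 0.89, peak near 14.9 h, adjusted p = 0.132) and miR-1004-3p (0.78, peak near 14.8 h, adjusted p = 0.148). Both were called when the library of old ZT4 replicate 3 was left out (adjusted p = 0.0404 each).

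The young rhythm of miR-1015-3p was measured on few reads. It had 1 to 21 counts per young library and a fitted peak-to-trough log2 of 2.39 with a peak near 6.24 h (adjusted p = 0.0349). The means were 0.562 ± 0.318 CPM at ZT8 and 0.359 ± 0.356 CPM at ZT4, against 0.106 to 0.158 CPM at the other 4 times. In 3 libraries the ovary miRNA miR-318-3p was far above the median of its age, by 40.2 times in old ZT0 replicate 1, by 26.1 times in young ZT4 replicate 3 and by 42.5 times in young ZT8 replicate 3, and the 4 ovary miRNAs together summed to 543 to 868 CPM, against 11.1 to 55.1 CPM in the other old and 15.1 to 58.4 CPM in the other young libraries. The level of miR-1015-3p in these 3 libraries was 0.486 to 0.918 CPM, against 0.0411 to 0.250 CPM in the other old and 0.0381 to 0.459 CPM in the other young libraries. Among the young libraries outside these 3, the highest were the other 2 of ZT8 (0.308 and 0.459 CPM), against 0.0381 to 0.247 CPM in the remaining 14. The library at 0.459 CPM, young ZT8 replicate 1, itself had miR-318-3p at 2.66 times the median of its age. Its ovary miRNAs summed to 58.4 CPM, the top of the range of the other young libraries. Without the 3 libraries the arm did not pass the filter and was not tested. With no filter, an alternative added after the data were seen, its peak-to-trough log2 without them was 1.35 (adjusted p = 0.573), against 2.36 with them (adjusted p = 0.0461). When single libraries were left out it was 1.95 to 2.68, and the adjusted p was above 0.05 in 10 of 36 cases. For age, 11 of 21 tested members were lower and 2 higher in old heads without the 3 libraries, while 3 of the libraries that remained still had miR-318-3p at 2.66 to 3.46 times the median. The part of ovary RNA in these results was not tested further.

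Together the members took 0.131% ± 0.0116 of miRNA counts in old heads and 0.131% ± 0.0108 in young heads (SD, n = 18 each). Most of this was miR-1010-3p, with 54.4% ± 5.59 of the members' counts in old and 51.0% ± 4.99 in young heads. Without it the members took 0.0595% ± 0.00545 in old and 0.0640% ± 0.00607 in young heads. Of the larger total behind the piRNA values, all members took 0.0340% ± 0.00435 in old and 0.0596% ± 0.00531 in young heads. The summed share was thus level or lower in old heads according to the total it was set against.

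The libraries with the highest CPM of miR-1010-3p were also rich in miR-184-3p, an abundant miRNA with a known role in the female germline, but their order depended on the scaling factor. In old ZT0 replicate 3, miR-184-3p took 37.1% of miRNA counts and miR-1010-3p had 1399 CPM. In young ZT0 replicate 1 the values were 45.3% and 1103 CPM, and in young ZT4 replicate 1 they were 18.6% and 1087 CPM. In RPM of the miRNA total, with no scaling factor, miR-1010-3p was at 996 in old ZT0 replicate 3, at 705 in young ZT0 replicate 1, where the factor was 0.640, and at 1000 in young ZT4 replicate 1. The median share of miR-184-3p was 10.1% in old and 11.1% in young heads. Its part in the level of miR-1010-3p was not tested, and without the first 2 libraries miR-1010-3p remained uncalled for age. The neuronal, eye, muscle and fat body markers were detected in all libraries and some of them differed with age. The neuronal miR-124-3p averaged 420 CPM in old and 306 CPM in young heads (log2 difference 0.46, adjusted p = 6.67e-05). Lower in old heads were miR-210-3p, which is expressed in the eye (28964 CPM in old and 35129 CPM in young heads, -0.28, adjusted p = 3.46e-05), and miR-7-5p, which acts in photoreceptors (804 and 1130 CPM, -0.48, adjusted p = 0.000567). The young mean of miR-7-5p included a library at 2698 CPM, and its medians were 838 CPM in old and 1043 CPM in young heads. The muscle miRNA miR-1-3p was not called (563 CPM in old and 553 CPM in young heads, adjusted p = 0.504). Its young mean included a library at 2770 CPM, and its medians were 576 CPM in old and 418 CPM in young heads. The level of miR-8-3p, which is expressed in the fat body, was higher in old heads (185696 and 164449 CPM, 0.17, adjusted p = 0.0305). The part of these markers in the age differences of the mirtrons was not tested.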

How the data were processed

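Each mature arm has a deposited expected count, which can be fractional, in every library. The authors also gave RPM, which equals that count scaled to the miRNA total of the library. The deposited piRNA tables, in expected counts and RPM, served only to recover the larger library total behind their RPM, which the files do not name, and 72 value columns of their second set were not used. Bowtie and the builds BDGP6 and dm6 are named in the submitters' processing notes, and their roles and versions are not given in the sources used here. The files call the values adjusted without a definition. Small RNA came from TRIzol extraction and TruSeq libraries, per the labels' protocols.

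Counts were rounded and analysed with edgeR 4.0.16 in R 4.3.3. TMM factors were computed over all rows of the miRNA table, and features were then kept with filterByExpr over the 12 groups. Age was tested over all 36 libraries with time point as a factor, and its SE was taken from the F statistic. Rhythms had 24 h terms per age. Arm ratios, log2((3p + 0.5)/(5p + 0.5)), were fitted with limma 3.58.1 for hairpins whose lesser arm averaged at least 5 counts. P-values were Benjamini-Hochberg adjusted over all tested features, with a threshold of 0.05. The age, young-rhythm and arm-ratio tests were checked on simulated data. The simulated libraries were drawn independently of each other, so this did not check the tests under dependence between libraries. The written plan asked for TMM factors over the whole table. Factors over the kept rows alone were also computed, and that scaling was for a time taken as the main one after both results had been seen, before the literal plan was restored. Both are reported.

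Every member is accounted for. Library values are given for members of at least 10 CPM or called for age. Comparison hairpins were grouped by annotated position, within a tolerance of 3 bases and for introns of at most 150 bases. The members, lists and tests were chosen with earlier results of these data known. Alternatives were RLE factors, library totals, no filter, a filter at 10 CPM, DESeq2 1.42.0, limma on log2(RPM + 1), limma-voom (statmod 1.5.0), a replicate block, sums per series of 6 libraries, omission of rr identifiers and omission of libraries. Replicate numbers were not used to pair the samples across ages in the main fits. In each of the 36 replicate pairs the counts differed beyond counting error.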

Additional observations from a re-analysis of the deposited data

How the results depend on the processing

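The 10 lower calls kept a negative log2 difference under every alternative that tested them, and 8 of the 10 stayed called. The calls of miR-1008-5p and miR-1011-3p were lost with limma on log2(RPM + 1) and when only library totals set the scale. The kept signs say little of the scale. The largest upward shift of the median of all features was 0.14, with library totals alone, and the smallest lower call was -0.23. With TMM factors over the kept rows 11 arms were lower and 1 higher, as miR-1016-5p gained a call (-0.25, adjusted p = 0.016) and miR-1006-5p lost it (0.26, adjusted p = 0.099). The number of members called for age was 7 of the 11 tested arms with a filter at 10 CPM and 22 with library sizes from the larger piRNA total. On that last scale miR-1005-3p (-0.45), miR-1006-5p (-0.37), miR-1007-3p (-0.32), miR-1007-5p (-0.47), miR-1008-3p (-0.65) and miR-1013-3p (-0.61) turned negative. The higher calls numbered 4 with library totals alone, 5 with limma on log2(RPM + 1) and 0 with counts summed per series. The RLE factors gave 11 lower and 1 higher call and DESeq2 gave 10 and 1.

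For a young rhythm 0 members were called with limma on log2(RPM + 1) and without the 3 ovary-rich libraries when no filter was applied (miR-1015-3p, adjusted p = 0.573). The 0 calls with a filter at 10 CPM, and without those libraries under the usual filter, say nothing of miR-1015-3p, which was not tested there. Arm-ratio calls numbered 3 of the 3 tested mirtrons where the lesser arm had to average 50 counts; with counts summed per series miR-1004 (adjusted p = 0.0603) and miR-1006 (adjusted p = 0.175) lost theirs. The share of members was 0.15% in old and 0.153% in young heads without miR-184-3p in the total, and 0.0340% and 0.0596% of the total behind the RPM. Leaving out single libraries gave 11 to 13 members called for age, 0 to 1 for a young rhythm, 0 to 2 for an old rhythm and 6 to 7 arm-ratio calls, and in all 36 cases the 10 lower calls were kept. The young rhythm was lost without young ZT0 replicate 1, ZT4 replicate 3, ZT8 replicates 1 and 3, ZT12 replicate 3, ZT16 replicate 3 or ZT20 replicates 2 and 3, or old ZT8 or ZT16 replicate 3. The call of miR-1006-5p was kept without young ZT0 or ZT12 replicate 3, ZT8 replicate 1 or 3, ZT12 replicate 1, or old ZT0 replicate 3, ZT4, ZT8 or ZT20 replicate 1 or ZT12 replicate 2. The arm ratio of miR-1008 gained a call without young ZT4 replicate 3, young ZT16 replicate 1, or old ZT0 replicate 1, ZT8 replicate 3 or ZT12 replicate 2.

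Same-numbered libraries of the 2 ages deviated together little at the median (correlation 0.034, from -0.341 to 0.437, over 0.1 in 7 of 18 pairs). So few pairs cannot settle whether the numbers link samples across ages, and the main fit did not pair them. Within an age, libraries of the same number at different times correlated over 0.1 in 46 of 90 pairs, from -0.287 to 0.716 (consensus correlation 0.128 in limma-voom), so libraries of 1 number may not be independent. With counts summed per number the 10 lower calls were kept and the 2 higher ones were lost; with the replicate number as a block 12 members were called for age, 10 of them lower, and 6 arm ratios. Counts under 50 per library, as in miR-1016-3p and miR-1015-3p, limit the precision of the rarest arms.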
